A study of Homo sapiens with 16 samples.

Results

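TUNAR and NPY1R were the 2 genes described here, of 35810 genes summed from the transcript tables, and they were chosen by their large measured rises under latrunculin B, a compound that depolymerises actin filaments. The values that chose them were the differences between latrunculin B and control libraries, so those differences are given as description, with no test. The cells were pancreatic progenitors differentiated from SA121, a human embryonic stem cell line with an NGN3-GFP reporter for the endocrine gene NEUROG3, and they were sampled from day 19. Control cells were collected in 3 libraries at 0 h and, with the vehicle DMSO, in 2 libraries at 24 h. Cells given 0.5 µM latrunculin B were collected in 3 libraries at each of 3, 6 and 24 h and in 2 libraries at 12 h. The labels tag the 0 h control with DMSO as well, although the treatment text names the vehicle for 24 h alone. All 16 libraries thus shared 1 cell line, 1 genotype and 1 differentiation protocol, and no DMSO library of 3, 6 or 12 h was used. The labels do not say whether replicates were separate differentiations, so p-values may measure technical spread only.

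TUNAR was first described as a long noncoding RNA of pluripotent and neural cells that binds the RNA-binding proteins PTBP1, HNRNPK and NCL. Current annotation gives it a short reading frame, whose product is a small membrane protein of the endoplasmic reticulum that binds the calcium pump SERCA and has been studied in neural and pancreatic beta cells. NPY1R encodes a receptor for neuropeptide Y (NPY) and peptide YY (PYY), couples to Gi/o proteins, which lower cyclic AMP, and is known in neurons and in islets, where NPY signalling restrains insulin release. PYY and pancreatic polypeptide (PPY), the other hormones of the family, are made by endocrine cells of the gut and pancreas.

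On GRCh38, with GENCODE release 44, TUNAR (ENSG00000250366.4) lies on the plus strand at chr14:95866587-95925663 and NPY1R (ENSG00000164128.7) on the minus strand at chr4:163323962-163344832, both annotated as protein-coding. The tables held 3 TUNAR transcripts, and each carries the same reading frame of 48 codons and a stop, which lies inside 1 exon at chr14:95922820-95922966. It is shown because it is the coding sequence that every counted TUNAR transcript shares, with the start and stop codons in capitals.
TUNAR reading frame: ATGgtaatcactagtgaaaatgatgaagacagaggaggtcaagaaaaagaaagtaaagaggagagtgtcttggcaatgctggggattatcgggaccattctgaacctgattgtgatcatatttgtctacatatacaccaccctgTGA

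The starts of both genes are shown next, from the RefSeq promoter table (GRCh38.p14), as 250 bases before to 50 bases after the RefSeq start, 5′ to 3′ on the strand of the gene. TUNAR has a window around each of 2 starts, 1 that holds the GENCODE start of TUNAR-202 and 1 that holds the start of TUNAR-201, and NPY1R has a single window, which holds the start of NPY1R-201. The capitals mark matches on either strand to the motifs searched, which were CANNTG (the E-box of basic helix-loop-helix factors), its form CAGATG, the TEAD core GGAATG, the full cyclic AMP response element TGACGTCA and the shorter TGACG contained in it.
TUNAR, start of TUNAR-202, chr14:95876198-95876497, plus strand: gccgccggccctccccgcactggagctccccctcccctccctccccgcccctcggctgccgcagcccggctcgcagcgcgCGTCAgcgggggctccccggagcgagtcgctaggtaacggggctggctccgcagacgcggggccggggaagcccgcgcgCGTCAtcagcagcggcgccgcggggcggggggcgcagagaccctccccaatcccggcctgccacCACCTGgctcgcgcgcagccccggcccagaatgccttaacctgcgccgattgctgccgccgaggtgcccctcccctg
TUNAR, start of TUNAR-201, chr14:95876582-95876881, plus strand: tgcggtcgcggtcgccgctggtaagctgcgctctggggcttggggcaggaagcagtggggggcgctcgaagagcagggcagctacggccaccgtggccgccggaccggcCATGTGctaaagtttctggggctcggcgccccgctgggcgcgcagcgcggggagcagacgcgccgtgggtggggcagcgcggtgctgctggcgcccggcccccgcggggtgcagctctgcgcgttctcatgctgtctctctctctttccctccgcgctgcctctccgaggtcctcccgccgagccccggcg
NPY1R, chr4:163332547-163332846, minus strand: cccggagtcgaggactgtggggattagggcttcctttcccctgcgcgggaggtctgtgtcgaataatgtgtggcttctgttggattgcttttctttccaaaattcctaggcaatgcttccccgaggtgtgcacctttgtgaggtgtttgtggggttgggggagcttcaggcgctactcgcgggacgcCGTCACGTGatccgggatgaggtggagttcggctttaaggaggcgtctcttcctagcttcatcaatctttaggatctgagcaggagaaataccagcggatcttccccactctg

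Each of the 3 windows held 1 CANNTG match, and 68.7% of 35116 promoter windows of the same length held at least 1. The TGACG letters were present at 2 places in the window of TUNAR-202 and at 1 place in that of NPY1R, where they overlap the E-box, and 24.6% of all windows hold them. None of the 3 windows held CAGATG (in 14.7% of all windows), the letters GGAATG (14%) or the full element TGACGTCA (1.85%). The TUNAR windows were richer in G and C (78.3% and 74.3%) than the NPY1R window (55.0%), with a median of 58.7% over all windows.

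Libraries held from 23609727 to 33515398 estimated reads, and both genes were among the 16705 genes that passed the filter on low counts. Pancreatic progenitor markers were present throughout, with 10 of 11 at 1 TPM (a level scaled to transcript length and library size) or more in every library and a summed level of 1402 to 2529 TPM. The summed endocrine markers ran from 69.3 to 85.0 TPM in control 0 h, from 117 to 136 TPM in control 24 h and from 161 to 538 TPM at 24 h of latrunculin B, where replicate 1 had the 161 TPM. Of 12 mesenchyme and vessel markers, the summed level was 133 TPM in replicate 1 at 12 h and 585 TPM in replicate 2, so these libraries stood apart from each other. Differences at 12 h are given with and without replicate 2 for TUNAR, NPY1R, PYY and NPY. Those of other genes, and all list counts at 12 h, rest on both libraries. The part of other cell types in the results was not tested, and fewer cells of a type cannot be told from less RNA per cell in such bulk samples.

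TUNAR was already higher than in controls at 3 h of latrunculin B, was highest at 6 to 12 h and lay lower again at 24 h. The level in the 3 control 0 h libraries was 1.58, 1.64 and 1.95 TPM, from 75 to 97 reads, and in the 2 control 24 h libraries 2.05 and 1.72 TPM. Under latrunculin B it was 5.35, 5.18 and 3.58 TPM at 3 h and 14.3, 13.1 and 11.4 TPM at 6 h. At 12 h it was 9.76 TPM in replicate 1 and 28.2 TPM in replicate 2, and at 24 h it was 11.4, 4.08 and 6.58 TPM. Every latrunculin B library lay above every control library, the 12 h libraries stood far apart, and the 24 h libraries all lay below the lowest 6 h library, replicate 1 only just.

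On the log2 scale of CPM (reads scaled to library size), with the standard error (SE) of the edgeR fit, TUNAR was higher than control 0 h by 1.49 (SE 0.37) at 3 h, by 2.99 (SE 0.37) at 6 h and by 3.40 (SE 0.39) at 12 h. These are 2.82-fold, 7.96-fold and 10.5-fold differences. Without replicate 2 at 12 h the difference was 2.57 (SE 0.36), below that at 6 h, and without replicate 1 it was 3.91 (SE 0.34), so the height of the 12 h point rests on these 2 libraries. At 24 h TUNAR was higher than control 24 h by 1.99 (SE 0.42), which is 3.97-fold. That TUNAR did not overlap its control at any time is what its choice fixed, and of all genes tested 25.3%, 29.5%, 26.3% and 33.4% were higher without overlap at 3, 6, 12 and 24 h.

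The levels of TUNAR, as mean CPM ± SD, were in rising order 3.25 ± 0.266 in control 0 h, 3.43 ± 0.284 in control 24 h, 9.17 ± 1.68 at 3 h, 13.6 ± 6.69 at 24 h, 25.9 ± 2.26 at 6 h and 34.1 ± 20.9 at 12 h. Neighbours in this order that overlapped were both controls, 3 h and 24 h, and 6 h and 12 h. The level at 24 h, at most 20.9 CPM, lay below that at 6 h, at least 23.5 CPM, without overlap. Within the 24 h group, the library with the highest TUNAR (replicate 1, 11.4 TPM) had the lowest summed endocrine markers (161 TPM) and the library with the lowest TUNAR (replicate 2, 4.08 TPM) had the highest (538 TPM), and with 3 libraries no correlation was computed.

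NPY1R was little higher than in control 0 h at 3 h, lay above all controls from 6 h and had its highest levels at 12 and 24 h. It was 2.12, 2.18 and 2.87 TPM in control 0 h, from 64 to 98 reads, and 3.60 and 4.01 TPM in control 24 h. Under latrunculin B it was 4.15, 3.30 and 3.77 TPM at 3 h and 8.12, 10.1 and 8.07 TPM at 6 h. It reached 17.8 and 20.3 TPM at 12 h and 21.4, 22.4 and 19.0 TPM at 24 h. The 3 h libraries lay among the control 24 h libraries, whereas the 6 h libraries lay above all controls and below all libraries of 12 and 24 h. Unlike TUNAR, NPY1R was close to equal in both 12 h libraries and in all 3 libraries of 24 h.

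NPY1R was higher than control 0 h by 0.49 (SE 0.15) at 3 h, by 1.97 (SE 0.15) at 6 h and by 2.91 (SE 0.16) at 12 h on the log2 CPM scale, and higher than control 24 h by 2.40 (SE 0.17) at 24 h. The fold differences were 1.41, 3.92, 7.51 and 5.26. Set against control 24 h in place of control 0 h, the 3 h difference was -0.15 (SE 0.16), so its direction depends on which control is the reference. Without replicate 2 the 12 h difference was 2.86 (SE 0.18). As mean CPM ± SD, NPY1R stood in the order 3.26 ± 0.818 in control 0 h, 4.58 ± 0.325 at 3 h, 5.08 ± 0.522 in control 24 h, 12.8 ± 1.63 at 6 h, 24.4 ± 1.16 at 12 h and 26.8 ± 2.17 at 24 h. In this order 3 h and control 24 h overlapped, as did 12 h and 24 h.

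**Figure D1:**
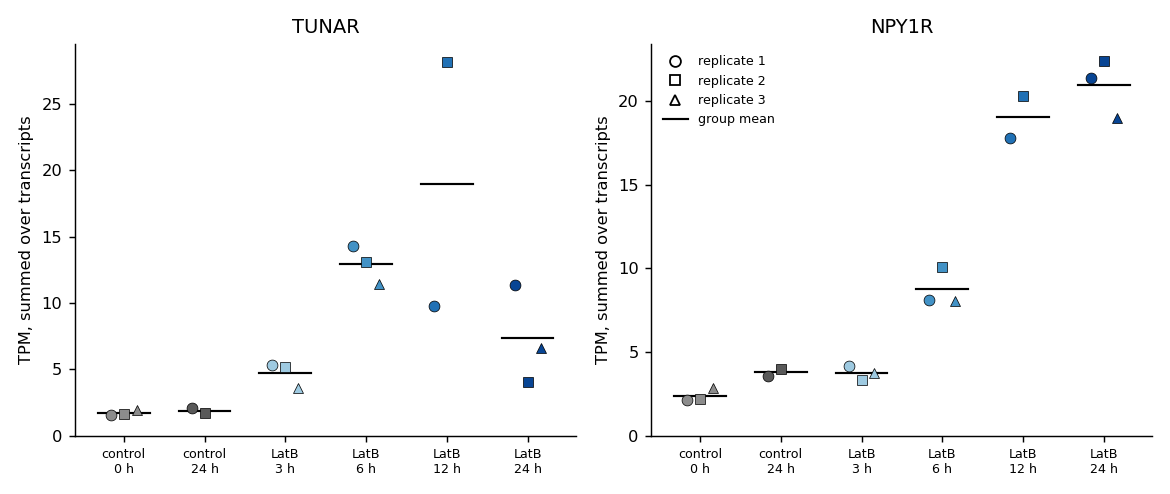
TPM of TUNAR (left) and NPY1R (right) in each of 16 libraries, summed over the transcripts of the gene, with 1 symbol per replicate number and a line at the group mean. TUNAR is raised from 3 h, with 9.76 and 28.2 TPM in the 2 libraries of 12 h and at most 11.4 TPM at 24 h, while NPY1R stays at or below 4.15 TPM through 3 h and lies between 17.8 and 22.4 TPM at 12 and 24 h.

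The comparison of both controls did not use the drug, although its libraries are also the references of the rises. TUNAR did not differ beyond the spread, with a log2 difference of 0.07 (SE 0.44, edgeR adjusted p = 0.992 over all genes tested) and overlapping groups. NPY1R was higher in control 24 h by 0.64 (SE 0.17), in 2 of 2 libraries. The edgeR test did not call it (adjusted p = 0.149 over all genes tested), whereas DESeq2 did (adjusted p = 0.0296). Of all genes tested, edgeR called 0.251% in this comparison, and 14.4% were higher in control 24 h without overlap.

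The 2 genes thus followed different courses, and the name of late risers, under which they were chosen, describes NPY1R, highest at 12 and 24 h, and goes against the levels of TUNAR. Taking the log2 difference from control 0 h at 24 h as 100%, TUNAR stood at 75.7% of it at 3 h, 154% at 6 h and 167% at 12 h. NPY1R stood at 16.7%, 64.7% and 95.8%. The median over the 311 genes with a log2 difference of at least 1 from control 0 h at 24 h and a mean log2 CPM of at least 0 was 23.0%, 53.2% and 82.2%, and of these genes 17.0% were further along than TUNAR at 3 h and 55.9% were further along than NPY1R. By the size of the log2 difference, TUNAR ranked 226, 59, 68 and 230 of 16705 genes at 3, 6, 12 and 24 h, and NPY1R ranked 1663, 163, 104 and 174. The ratio of TUNAR to NPY1R in TPM ran from 0.429 to 0.753 in the controls, from 0.951 to 1.76 at 3 and 6 h and from 0.182 to 0.532 at 24 h. The ratio at 3 and 6 h lay above all controls, and it was 0.549 and 1.39 in the 2 libraries of 12 h.

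Transcript use was a readout that the choice of the genes did not rest on. Over all libraries TUNAR-202 (2930 bases) was given 3195 reads and TUNAR-201 (3197 bases) 3188 reads, while TUNAR-203 had 7.1. Both main transcripts have 2 exons and start inside the 2 windows printed above. In the 5 controls the share of TUNAR-202 ran from 22.7% to 68.8% (46.3% ± 17.4, SD, n = 5) and in the 5 libraries of 12 and 24 h from 40.1% to 55.5% (49.0% ± 5.80, SD, n = 5). The difference of 2.74 percentage points was not distinguishable from the spread (two-sided exact permutation test over 252 splits, p = 0.746, the smallest possible being 0.00794). Control shares rest on 75 to 107 reads per library that salmon had to divide between overlapping transcripts, which limits their precision.

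NPY1R was carried almost wholly by NPY1R-201, a transcript of 3 exons and 2762 bases with a coding sequence of 1152 bases, which had 5597 reads over all libraries, and the other 6 transcripts together had few. Its share was 97.5% ± 2.84 (SD, n = 5) in controls and 97.9% ± 1.70 (SD, n = 5) at 12 and 24 h, a difference of 0.361 percentage points (exact permutation test, p = 0.762). The gene span of NPY1R overlaps that of NPY5R on the other strand, and the stated library kit does not mark strand. The only NPY1R transcript that reaches into NPY5R is NPY1R-205, which had 7.65 reads over all libraries.

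**Figure D2:**
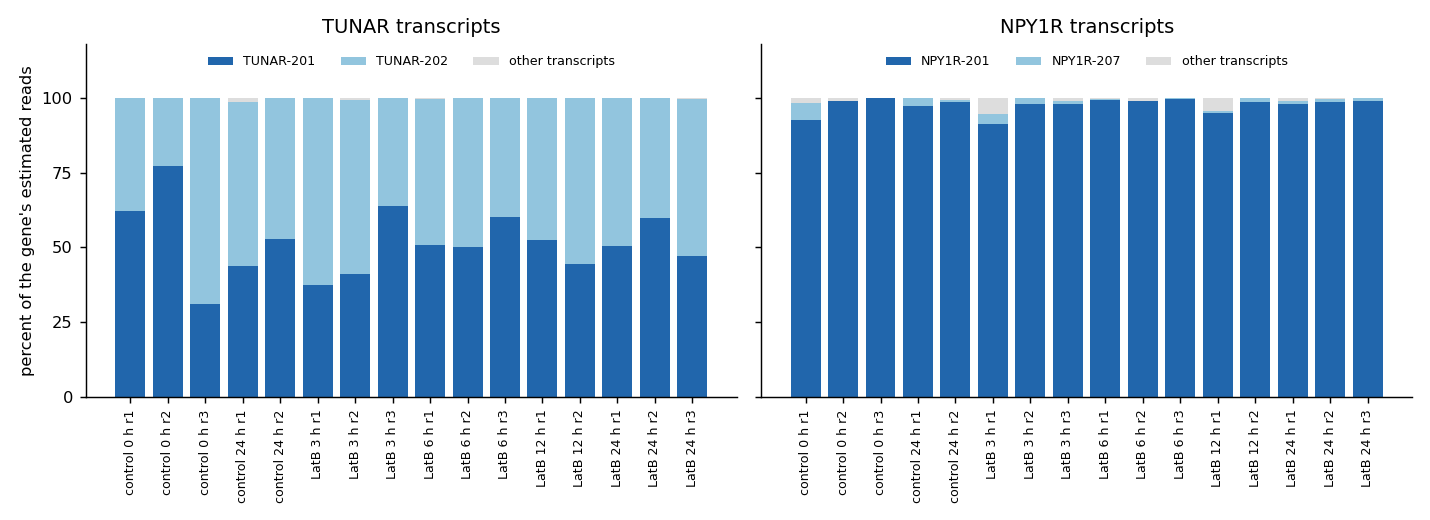
Share of the estimated reads of TUNAR (left) and NPY1R (right) given to each transcript in every library, as stacked bars that sum to 100% (r, replicate). TUNAR-201 and TUNAR-202 divide the reads of TUNAR, with TUNAR-202 between 22.7% and 68.8% in controls, and NPY1R-201 holds nearly all reads of NPY1R.

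Among the hormones that act on NPY receptors, PYY rose at 24 h and NPY did not, and PPY is given as description only. PYY, whose mature form binds NPY1R, had 17 and 11 reads in control 24 h and 72, 286 and 191 reads at 24 h of latrunculin B (5.70, 18.3 and 13.1 TPM), without overlap. Its log2 difference was 3.67 (SE 0.70, edgeR adjusted p = 0.00102). At 12 h it had 49 reads in replicate 1 and 13 in replicate 2 and was not called (1.56, edgeR adjusted p = 0.0871), and without replicate 2 it was (2.32, adjusted p = 0.0139). The lowest library of 24 h was replicate 1, also the one with the lowest summed endocrine markers, whereas NPY1R was 21.4 TPM there. PPY, the ligand of NPY4R, had 2 reads over control 24 h and 41 over the 24 h group, a ratio of 13.7 with a 95% exact counting interval from 3.56 to 117. It passed the filter on low counts only through the 24 h group, so its edgeR call there is partly fixed by the filter. That call was also lost when either control library was left out.

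NPY itself, at 6.98, 4.27 and 4.99 TPM at 24 h against 7.19 and 6.64 TPM in control 24 h, was not called (log2 difference -0.33, SE 0.57, edgeR adjusted p = 0.677). At 12 h it was called (log2 difference 2.05, SE 0.55, edgeR adjusted p = 0.0102), on 29 reads in replicate 1 and 286 in replicate 2. The groups overlapped, since replicate 1 had 5.03 TPM and control 0 h 4.98 to 6.93 TPM, and without replicate 2 the difference was -0.06 (edgeR adjusted p = 0.927). Replicate 2 at 12 h thus had the highest NPY (45.0 TPM) and the highest TUNAR (28.2 TPM) of all libraries, with COL3A1, a fibrillar collagen of mesenchyme, at 207 TPM against 27.3 TPM in replicate 1.

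The enzymes that cut and trim these peptides moved in part. PCSK2, a proprotein convertase of secretory granules, had 9 to 12 reads in control 0 h, 51 to 62 at 6 h and 89 to 177 at 24 h. It rose at 6 h (log2 difference 2.50, SE 0.36), 12 h (3.42, SE 0.37) and 24 h (2.59, SE 0.38), with edgeR adjusted p = 9.41e-05, 1.78e-05 and 0.00016. PCSK1, its relative, rose at 6 h (2.26, SE 0.44, edgeR adjusted p = 0.000972) and 12 h (1.59, SE 0.48, edgeR adjusted p = 0.0191) against control 0 h, and against control 24 h these differences were 0.70 and 0.03 (edgeR adjusted p = 0.24 and 0.977). The 12 h call was lost in 5 of 15 alternative settings. At 24 h PCSK1 overlapped the control, with 0.64 TPM in replicate 1 and 2.64 and 2.58 TPM in the others. CPE, the carboxypeptidase that follows the convertases, rose by 0.44 (SE 0.06) at 6 h and 0.33 (SE 0.06) at 12 h from a level of 954 to 1004 TPM in control 0 h, and PAM, which amidates the peptide end, by 0.23 (SE 0.06) at 6 h (edgeR adjusted p = 4.87e-05, 0.00147 and 0.00788). The call of PAM was lost in 5 of 16 alternative settings.

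DPP4, a surface peptidase that trims NPY and PYY so that they no longer bind NPY1R well, had log2 differences of 0.49 (SE 0.17) at 3 h and 0.63 (SE 0.18) at 12 h from control 0 h (edgeR adjusted p = 0.0389 and 0.0164) and was not called at 6 or 24 h. The 3 h call was lost in 11 of 16 alternative settings and the 12 h call in 3 of 15, and against control 24 h the differences were 0.07 and 0.21 (edgeR adjusted p = 0.826 and 0.457). FAP, a related peptidase, had 2 reads in each of 2 libraries and was not tested. Of the 8 tested genes of ligands and processing, 1, 4, 5 and 3 rose at 3, 6, 12 and 24 h and 0 fell, with a median log2 difference of 0.56, 0.97, 1.57 and 0.55. Of all genes tested, 16.8%, 22.9%, 19.1% and 21.9% rose at these times and 14.7%, 20.4%, 16.8% and 18.8% fell, with a median at or near 0. PPY, counted at 24 h, passed the filter on low counts only through that group (0.30 to 0.58 CPM, at most 0.26 CPM elsewhere). Its place in the 24 h count is thus partly fixed by the filter and is given as description.

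The other receptors of the family were far lower than NPY1R. NPY5R, which shares ligands with NPY1R, was 0.08 and 0.04 TPM in control 24 h, from 3 reads in all, and 0.42, 0.52 and 0.61 TPM at 24 h, from 38 reads. The ratio was 8.46, with a 95% exact counting interval from 2.68 to 42.8. In control 0 h NPY5R had 2 to 4 reads per library, with a mean of 0.128 CPM against 0.0496 CPM in control 24 h, so its rise is smaller against that control. NPY4R, the receptor of PPY, had 1 read in control 24 h and 31 reads at 24 h (ratio 20.7, interval from 3.45 to 844). Its edgeR call was lost with DESeq2 and without either control library. NPY4R2 is a near-identical copy, listed with 10 reads in 1 library of 24 h and 0 in the rest, so that reads of both are uncertain. NPY2R, a receptor that binds shortened PYY, had at most 2 reads in any library. Both tested receptors were called higher at 24 h, where 21.9% of all genes tested were, and neither was called at 3, 6 or 12 h. NPY4R passed the filter on low counts only through the 24 h group (0.14 to 0.50 CPM, at most 0.13 CPM elsewhere). NPY5R also passed only through the same group (0.34 to 0.50 CPM, at most 0.35 CPM elsewhere). Their rises at 24 h are thus partly fixed by the filter and are given as description.

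**Figure D3:**
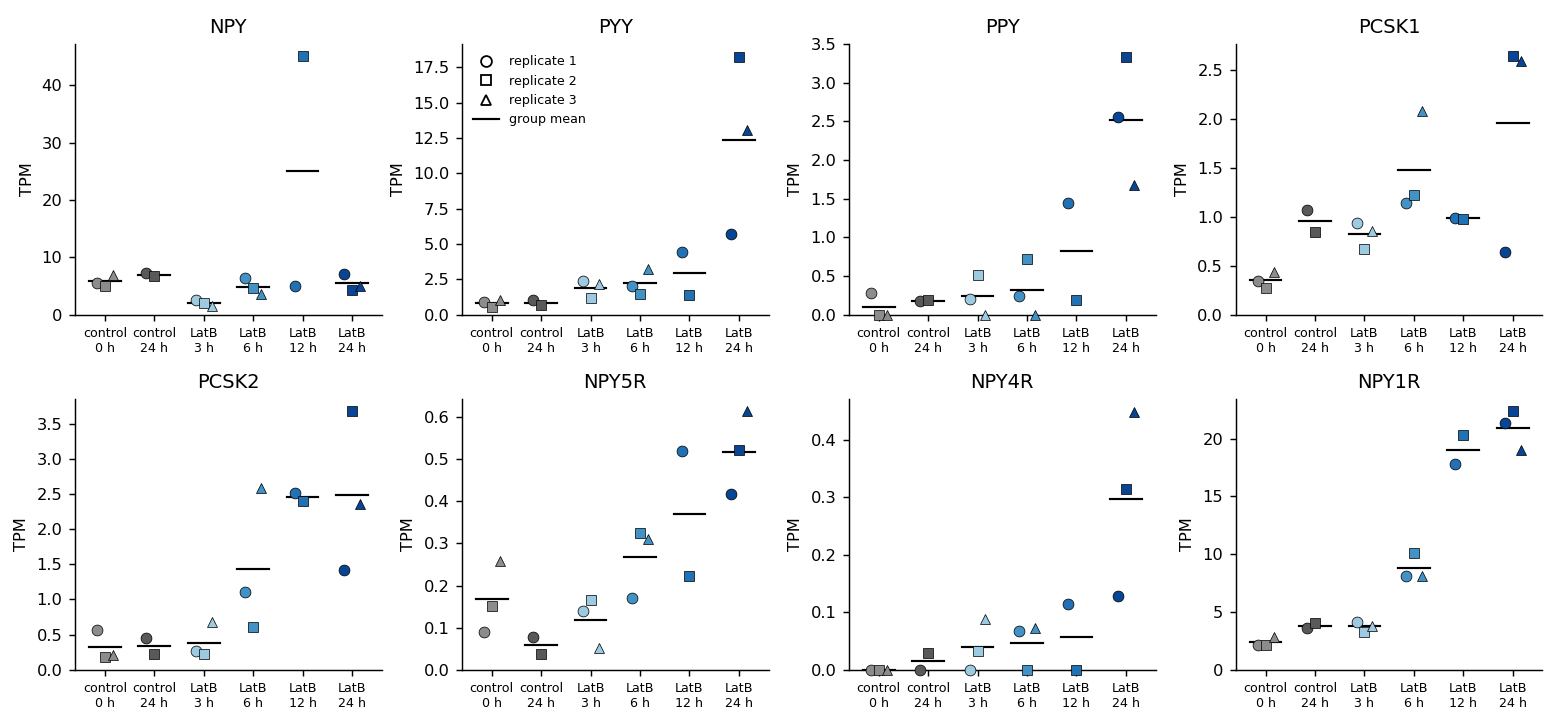
TPM of the NPY family hormones, their convertases and receptors in each library, with 1 symbol per replicate number and a line at the group mean, each panel on its own scale from 0. PYY is raised in the 24 h group (5.70 to 18.3 TPM), NPY stands out in replicate 2 of 12 h (45.0 TPM), and NPY5R and NPY4R stay below 1 TPM while NPY1R reaches 22.4 TPM.

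Of the 17 tested genes of Gi/o signalling, the machinery downstream of NPY1R, 5, 6, 4 and 5 rose and 2, 5, 4 and 5 fell at 3, 6, 12 and 24 h. Their median log2 difference was between 0.09 and 0.11 at all times. Of all genes tested, 16.8% to 22.9% rose and 14.7% to 20.4% fell. The potassium channel subunits gated by Gi/o moved apart, and KCNJ3, at 3.79 and 4.55 TPM in control 24 h and 1.21, 1.83 and 1.65 TPM at 24 h, fell by 1.46 on the log2 scale (SE 0.16, edgeR adjusted p = 1.76e-05). KCNJ5 was 0.15 and 0.09 TPM in control 24 h and 0.39, 0.45 and 0.30 TPM at 24 h, and rose by 1.47 (SE 0.42, edgeR adjusted p = 0.013), which was lost without replicate 2 of control 24 h (adjusted p = 0.123). KCNJ6, the third subunit, was not called (-0.39, SE 0.35, edgeR adjusted p = 0.399).

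Adenylyl cyclases make cyclic AMP, and Gi proteins restrain some of them but not all. These enzymes also moved both ways at 24 h. ADCY1 rose by 1.05 (SE 0.13, edgeR adjusted p = 4.92e-05) and ADCY3 by 0.59 (SE 0.15, edgeR adjusted p = 0.00752), whereas ADCY2 fell by 0.76 (SE 0.23, edgeR adjusted p = 0.0175) and ADCY6 by 0.59 (SE 0.08, edgeR adjusted p = 0.000109). Against control 0 h the difference of ADCY3 at 24 h was -0.06, so its direction depends on the control. ADCY6 was the only cyclase of the 7 tested that was called lower at all 4 times, by 0.35, 0.72, 0.49 and 0.59. ADCY7 was also lower each time, by 0.16, 0.97, 0.93 and 0.11, and was called at 6 and 12 h alone.

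The 3 RNA-binding proteins reported to bind TUNAR were abundant and rose by small amounts. PTBP1, a splicing repressor, was 141 to 147 TPM in control 0 h and 178 TPM in each library at 3 h, HNRNPK rose from 554 to 587 TPM to 715 to 739 TPM at 6 h, and NCL, the main nucleolar protein, from 571 to 603 TPM to 746 to 804 TPM at 6 h. All 3 rose at 3, 6 and 24 h and HNRNPK also at 12 h, where the log2 differences were 0.31 for HNRNPK (SE 0.06, edgeR adjusted p = 0.001), 0.13 for PTBP1 (SE 0.06, edgeR adjusted p = 0.105) and 0.18 for NCL (SE 0.08, edgeR adjusted p = 0.0987). The largest of these log2 differences was 0.56 (SE 0.05, edgeR adjusted p = 3.35e-06), for PTBP1 at 6 h, against 2.99 for TUNAR at the same time. The call of HNRNPK at 3 h was lost in 4 of 16 alternative settings and that of PTBP1 at 24 h in 3 of 15. Of all genes tested, 16.8%, 22.9%, 19.1% and 21.9% rose at 3, 6, 12 and 24 h.

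Of the SERCA pumps, the targets of the TUNAR protein, ATP2A2, the pump of most tissues and the most abundant here at 97.9 to 150 TPM, rose by 0.37 (SE 0.04) at 3 h and 0.30 (SE 0.04) at 6 h (edgeR adjusted p = 2.08e-05 and 6.76e-05). At 12 and 24 h it was not called, with -0.03 (SE 0.05) and 0.01 (SE 0.05). ATP2A3, a pump also made in islets, was 7.24 and 6.51 TPM in control 24 h and 8.64, 15.1 and 12.7 TPM at 24 h, and rose by 0.90 (SE 0.18, edgeR adjusted p = 0.00148). Its rises at 6 h (0.91, SE 0.17) and 12 h (1.47, SE 0.18) were against control 0 h, at 3.73 to 4.68 TPM, and against control 24 h the 6 h difference was -0.04 and the 12 h difference 0.52 (edgeR adjusted p = 0.898 and 0.0528). ATP2A1, the skeletal muscle pump, rose at 3 h (0.94, SE 0.20, edgeR adjusted p = 0.00291).

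Small membrane proteins that regulate SERCA, to which the TUNAR product is likened, were mostly low. C4orf3, at 50.9 to 56.3 TPM in control 0 h, fell by 0.23 (SE 0.05) at 3 h and by 0.32 (SE 0.05) at 6 h (edgeR adjusted p = 0.00448 and 0.000294) and was not called later. SMIM6 had 4.03 to 8.87 TPM and PLN and SLN at most 1.23 TPM, and none of the 3 was called in any comparison. MRLN had at most 10 reads in a library and STRIT1 1 read in all, and neither was tested. Of the 7 tested genes, 2, 2, 1 and 1 rose and 1, 1, 0 and 0 fell at 3, 6, 12 and 24 h, with a median log2 difference of 0.37, 0.01, -0.03 and 0.01, where 16.8% to 22.9% of all genes tested rose and 14.7% to 20.4% fell.

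Of 10 tested genes of calcium release and entry at the endoplasmic reticulum, 2, 3, 4 and 3 rose and 1, 2, 1 and 2 fell at 3, 6, 12 and 24 h, beside 16.8% to 22.9% and 14.7% to 20.4% of all genes tested. ITPR1, the calcium release channel opened by inositol trisphosphate, was 1.67 to 2.21 TPM in control 0 h, 2.67 and 3.24 TPM in control 24 h, 5.72 to 9.92 TPM at 6 h and 4.33 to 4.97 TPM at 24 h. Its log2 differences were 0.81, 1.90, 1.67 and 1.19 (SE 0.08 to 0.10), each called by edgeR, the last with an adjusted p = 1.93e-06. Over the alternative settings its 24 h difference ran from 0.518 to 1.23. Between the controls its TPM was higher at 24 h, whereas its log2 CPM difference was -0.15 (SE 0.10), so the measures disagree there. Like TUNAR, ITPR1 was higher at 6 h than at 24 h without overlap.

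**Figure D4:**
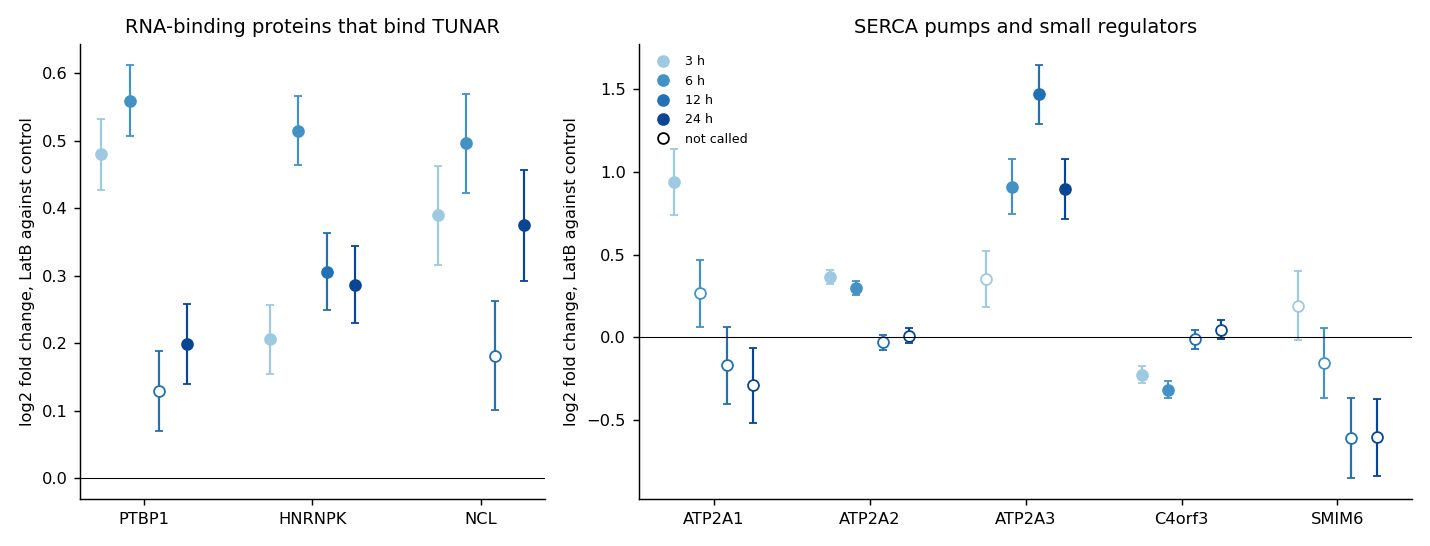
Log2 fold changes with their SE (bars) for the RNA-binding proteins that bind TUNAR (left) and for SERCA pumps with 2 small regulators (right), at 3, 6 and 12 h against control 0 h and at 24 h against control 24 h. Filled points passed the edgeR test and open points did not, and the 3 RNA-binding proteins lie between 0.13 and 0.56 at all times.

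Within 500 kb of TUNAR 31 other genes are annotated, of which 14 had rows and 8 were tested, and C14orf132, which starts 113699 bases beyond the end of TUNAR, was the only one of them that rose at 24 h. It fell by 0.40 (SE 0.09) at 3 h and then rose by 0.82 (SE 0.09), 1.43 (SE 0.10) and 0.84 (SE 0.10) at 6, 12 and 24 h (edgeR adjusted p = 0.00404, 9.38e-06, 4.08e-07 and 3.31e-05). These differences rest on transcripts whose version differs from the annotation, and with same-version transcripts alone they were -0.41 at 6 h and -0.45 at 24 h, not called. The bradykinin receptors BDKRB1 and BDKRB2 fell at 12 and 24 h (by 0.92 and 0.98 at 24 h, edgeR adjusted p = 0.0195 and 0.0103), as did the adenylate kinase AK7 (by 0.65 at 24 h, edgeR adjusted p = 0.00916). Earlier, BDKRB1 was called lower at 3 h (log2 difference -1.01, edgeR adjusted p = 0.00932) and AK7 at 6 h (-0.97, edgeR adjusted p = 0.000352). The 12 h calls of BDKRB1 and BDKRB2 were lost in 8 and 7 of 15 alternative settings, and the 24 h calls in 4 and 1, while AK7 at 24 h was lost in 3 of 15. A further annotated gene overlaps both bradykinin receptor genes, so that their reads are uncertain. GSKIP rose by 0.44, 0.50 and 0.31 at 3, 6 and 12 h and GLRX5 by 0.26 and 0.25 at 6 and 12 h, ATG2B by 0.28 and 0.25 at 3 and 6 h, and SYNE3 was not called. Of these calls, GLRX5 was lost in 3 of 16 alternative settings at 6 h and in 6 of 15 at 12 h. GSKIP was lost in 3 of 15 at 12 h, and ATG2B in 2 of 16 at 3 h and 3 of 16 at 6 h. Over the 8, 1 rose and 3 fell at 24 h, with a median of -0.32, where 21.9% of all genes tested rose and 18.8% fell.

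Of 14 annotated neighbours of NPY1R within 500 kb, 8 had rows and 4 were tested. NPY5R, described above, was the nearest. NAF1, a ribonucleoprotein assembly factor, rose at 6 h (0.40, SE 0.08, edgeR adjusted p = 0.00113). At 24 h TMA16 had a log2 difference of 0.36 (SE 0.12, edgeR adjusted p = 0.0331) and the ubiquitin ligase gene MARCHF1 of -0.75 (SE 0.27, edgeR adjusted p = 0.0391), and these calls were lost in 7 and 10 of 15 alternative settings.

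To name the genes whose course was most like each of the 2, the log2 changes of group mean CPM from control 0 h were compared over the other 5 groups in 13554 genes, by the root mean square difference (RMS). These groups are means over 2 or 3 libraries, and they share control 0 h. Among the 8 nearest to TUNAR were HAS2, a hyaluronan synthase (RMS 0.255), ADH1B, an alcohol dehydrogenase (0.342), the ETS factor SPDEF (0.383), BEX5 (0.433), ASS1, an enzyme of arginine synthesis (0.445), RIMKLA (0.485) and ADH1A (0.488). ADH1A and ADH1B are close paralogs whose reads may be divided wrongly. HAS2 shared with TUNAR the difference between the 12 h libraries, with 2.17 and 4.78 TPM, whereas RIMKLA had 6.14 and 8.04 TPM.

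Nearest to NPY1R was PCSK2 (RMS 0.242), followed by SYT4, a synaptotagmin of vesicle release (0.421), the somatostatin receptor SSTR1 (0.515), the mitochondrial carrier SLC25A12 (0.53), BEX5 (0.531), the Notch ligand DLL4 (0.535), SCG2, a granin of secretory granules (0.559), and lysozyme, LYZ (0.59). SSTR1 is, like NPY1R, a receptor coupled to Gi/o, and was 3.91 to 4.16 TPM in control 0 h, 25.1 to 26.8 TPM at 12 h and 15.3 to 17.6 TPM at 24 h. SYT4 was 1.51 TPM in replicate 1 of 12 h and 13.9 TPM in replicate 2, so its place near NPY1R rests partly on that library. TUNAR and NPY1R were not close to each other (RMS 0.845), NPY1R ranking 33 in the order of TUNAR and TUNAR ranking 36 in that of NPY1R, and BEX5 was near both.

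**Figure D5:**
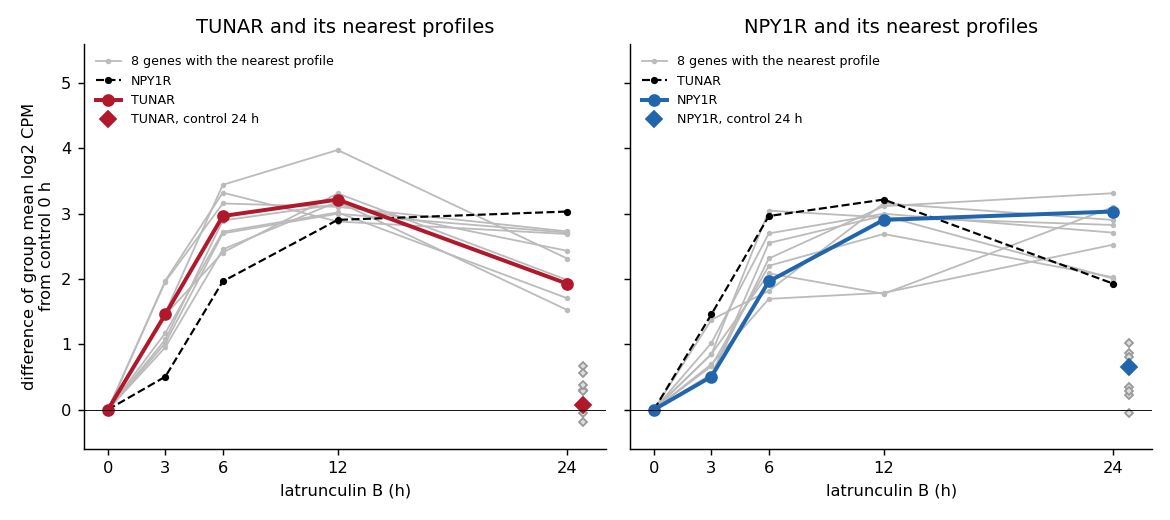
Differences of group mean log2 CPM from control 0 h over hours of latrunculin B for TUNAR (left) and NPY1R (right), each with the other gene (dashed) and the 8 nearest genes (grey), and diamonds at the right for control 24 h. TUNAR stands at 2.96 at 6 h, 3.22 at 12 h and 1.93 at 24 h, and NPY1R at 1.96, 2.91 and 3.03.

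Markers of cells that could bring TUNAR or NPY1R were followed by whole lists, to be read beside the 16.8%, 22.9%, 19.1% and 21.9% of all genes tested that rose at 3, 6, 12 and 24 h and the 14.7%, 20.4%, 16.8% and 18.8% that fell. Of 14 neuronal markers, 10 were tested, of which 3, 5, 3 and 4 rose and 0, 0, 0 and 2 fell at 3, 6, 12 and 24 h, with a summed level of 299 to 312 TPM in control 0 h and 514 to 581 TPM at 6 h, most of it the tubulin TUBB3. The median log2 difference of the tested neuronal markers was 0.258, 0.757, 0.556 and 0.499 at these times. SOX1 and ELAVL3, from the same list of 14, stayed at or below 0.10 TPM. Of 18 endocrine markers 3, 10, 11 and 9 rose and 0 fell, and of 11 progenitor markers 4, 4, 2 and 4 rose and 2, 1, 3 and 4 fell. The endocrine median log2 difference was 0.652, 1.251, 1.584 and 1.195 at these times and 1.093 between the controls, with 0 called there. The counts at 3, 6 and 12 h are against control 0 h, so drug and time cannot be told apart in them. Of 9 tested pluripotency markers, 0, 1, 2 and 2 rose and 2, 3, 2 and 2 fell, with a median log2 difference of -0.159, -0.42, 0.201 and -0.029. Their summed level was 192 to 208 TPM in both controls and 96.4 to 146 TPM under latrunculin B, and NANOG stayed at or below 0.27 TPM. The lower sum was thus not shared by the list at 12 and 24 h. Of 12 mesenchyme and vessel markers, 1, 0, 3 and 0 rose and 2, 3, 1 and 1 fell. Of 6 liver markers 1, 1, 4 and 0 rose, of 3 tested enterochromaffin markers 2, 1, 0 and 2, and none of either list fell.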

How the data were processed

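RNA was measured in 16 libraries, grouped by the labels. The authors deposited 1 salmon table per library (Salmon 1.3.0 and hg38 in the submitters' processing notes), which gives estimated counts and TPM of 177456 transcripts. The study's methods describe STAR alignment instead, so the upstream settings are not certain. The deposited table of the authors' own comparisons holds DESeq2 log2 fold changes, p-values and 16 columns of per-sample values, none of which was used.

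Transcripts were joined to genes without version numbers through GENCODE release 44 (GRCh38): 165533 matched, 151923 with the same version, and 2.92% to 3.17% of reads per library were left out. Salmon shares reads among similar transcripts, so near-identical genes are uncertain. Estimated counts were summed per gene, rounded and tested with edgeR 4.0.16 (R 4.3.3) by the two-sided quasi-likelihood test, with TMM, filterByExpr and all 6 groups in 1 fit, Benjamini-Hochberg adjusted over 16705 genes and called under 0.05. The SE is the log2 difference divided by the square root of F. TPM was summed per gene with no further change. Totals were 23609727 to 33515398 reads per library, which leaves 64 to 98 reads for either gene in control 0 h. Shares of transcripts were compared by an exact permutation test, and scripts were tested on simulated data. Counting intervals cover counting error only.

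The genes, lists, motifs and tests were chosen with earlier results of these data known. Named genes were both members, all genes of the hormone, receptor, RNA-binding protein and SERCA lists, genes of the other lists called at 24 h with a change of at least 0.5 (at most 6 per list), tested neighbours within 500 kb, and the 8 nearest profiles among genes with a mean log2 CPM of at least 0, of which 1 is not reported here. Genes named outside this rule (KCNJ6, ADCY7, COL3A1 and single markers of cell types) were chosen after their values were seen. A list of 12 developmental noncoding RNAs had no rows and was not analysed here. Alternatives were DESeq2 1.42.0, other scalings, no filter, limma-trend (limma 3.58.1) on log2(TPM + 1) and log2(TPM + 0.1), same-version transcripts, the other control, only the compared groups, the replicate block and leaving out each library.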

Additional observations from a re-analysis of the deposited data

How the results depend on the processing

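TUNAR and NPY1R kept the direction of each latrunculin B difference under the alternatives run, with 1 exception: against control 24 h, NPY1R at 3 h was -0.152. With control 24 h as the reference NPY1R was also 1.326 at 6 h and 2.265 at 12 h, and with control 0 h it was 3.039 at 24 h, which follows from the difference between the controls. On log2(TPM + 1) values were smaller, as that scale compresses low genes: TUNAR was 1.056 at 3 h and 2.351 at 6 h, and NPY1R 1.526 at 6 h and 2.189 at 24 h. On log2(TPM + 0.1) TUNAR at 6 h was 2.836. Leaving out each library, the log2 difference of TUNAR ran from 1.371 to 1.619 at 3 h, 2.916 to 3.05 at 6 h, 2.574 to 3.907 at 12 h, 1.539 to 2.271 at 24 h and -0.011 to 0.157 between controls, where it turned without replicate 1 of control 24 h. That of NPY1R ran from 0.347 to 0.694, 1.825 to 2.172, 2.764 to 3.111, 2.296 to 2.505 and 0.499 to 0.846. The share difference of TUNAR-202 ran from -3.165 to 8.377 points and that of NPY1R-201 from -0.837 to 1.101.

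NPY1R between controls was called by DESeq2 (0.652, adjusted p = 0.0296). Genes called between controls numbered 42 with edgeR, 265 with DESeq2, 218 with only the compared groups, 91 with no filter, 8 with RLE factors, 7 with no scaling, 2 and 7 on log2(TPM + 1) and log2(TPM + 0.1), 6 with same-version transcripts and 2 to 9 leaving out a library. List members called were 3, 3 and 1 with DESeq2, the compared groups and no filter, against 0. At 12 h genes called fell from 5988 to 2828 with only the compared groups and 3981 on log2(TPM + 0.1), and list members from 26 to 14 and 16, or 17 on log2(TPM + 1). Leaving out a library gave 4145 to 4720, 5934 to 6618, 4826 to 6162 and 4034 to 6424 genes at 3, 6, 12 and 24 h, and 16 to 21, 28 to 32, 18 to 27 and 17 to 27 list members, with the most calls lost at 24 h. Reversed among named genes were C14orf132 with same-version transcripts (-0.411 at 6 h, -0.447 at 24 h), ATP2A3 at 6 h (-0.035) and ADCY3 at 24 h (-0.062) with the other control, and NPY at 12 h without replicate 2 (-0.060, in a range up to 2.865 over the libraries left out). The causes were not tested beyond what each alternative removes.

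Replicate numbers did not pair the samples (same-number correlations at most 0.059). With the replicate block, TUNAR was 3.334 at 12 h and NPY1R 2.372 at 24 h, 6 genes were called between controls, NPY4R at 24 h was no longer called (adjusted p = 0.0841), and the counts at 3, 6, 12 and 24 h were 4853, 6863, 5364 and 6005. At the depth of these libraries, receptors other than NPY1R rest on at most 15 reads per library.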
